A study of Saccharomyces cerevisiae with 56 samples.

Results

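Nonsense variants of PDZ3, a domain of the scaffold protein PSD-95, carry a stop codon at 1 of the residues of the domain, either as their only change or together with a second change. They were taken from a deposited table of variant scores by 1 rule. An entry was kept when it carried a stop, had an error under 50 and differed from the wild type at exactly 1 residue (the stop) or at exactly 2 (the stop and another change). This gave 35015 of the 384696 entries: 482 single stops, 33708 variants with a stop and a missense change, and 825 with 2 stops. Every entry with a stop and a usable error met the rule. The 66 residues of the block run from R312 to I377, numbered as in the whole protein. Below, "the stop at R318" is a stop codon in place of the arginine R318, and I316E is a glutamate in place of the isoleucine I316.

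The variants were grown in the yeast strain BY4742 as 4 constructs: the domain with an extension that the labels call N, with one called C, with both (NC), and the domain alone (PDZ3). Each construct went through 2 growth competitions in methotrexate, abundancePCA and bindingPCA, of 5 generations at 30 °C in 400 mL. Each construct and assay together form a set, and each of the 8 sets had 3 input, 3 output and 1 wild-type libraries, 56 in all. The sources used here do not state the extensions' sequences, the binding partner or the end of the domain that carries the reporter.

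A stop codon ends translation, so the cell makes only the residues before it and no part of any protein that is fused behind the domain. A protein-fragment complementation assay joins fragments of a reporter enzyme to the proteins of interest. Cells grow in methotrexate, a blocker of dihydrofolate reductase, when the fragments of a resistant form of that enzyme meet: in the abundance assay when enough of the tagged protein is present, in the binding assay when it also meets its tagged partner. PDZ domains are small folds of strands and helices that hold the C-terminal tail of a partner protein in a groove. A missense change before a stop is part of the truncated peptide. A missense change after the stop is not translated, so doubles of that kind were used as the measured background for doubles with a change before the stop. The 2 groups do not hold the same stops, so this background is not matched stop by stop.

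All values are the authors' fitness score, on which the wild type of each set lay between -0.00449 and 0.0114 and lower means slower growth. Where ± follows a score it is the authors' standard error, and after a difference it combines such errors. The table merges the cultures into 1 value per variant, so depth is unknown, no spread between cultures can be given, and every test rests on the authors' errors. The log base of the score is not stated. The median error was 0.0195 to 0.0570 for single stops and 0.148 to 0.309 for doubles, depending on the set. Doubles with an untranslated change allow a check of these errors. Outside the stops at E352, Q358 and Q374 (described below), their differences from the single stop spread by 1.19 (N), 1.03 (C), 1.08 (NC) and 1.52 (PDZ3) times the error in abundance. In binding the factors were 0.934 (N), 1.85 (C), 1.5 (NC) and 0.821 (PDZ3). A factor above 1 means a spread wider than the authors' errors give, and it was widest in the abundance of PDZ3 and in the binding of C and NC. The factor for the binding of C includes the low single stop at S339, described below.

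The single stop was measured in all 8 sets at 57 of the 66 residues. It was in none at G319, G351, G356 and N363, in 3 sets at S320 and D332, in 6 at S361 and in 7 at V315 and H317. Between 58 and 61 single stops were available per set. In abundance every one of them scored below the wild type at an adjusted p under 0.05: 60 (N), 61 (C), 61 (NC) and 58 (PDZ3). Among all variants of the same sets 75.8% (N), 65.9% (C), 43.6% (NC) and 79.7% (PDZ3) did so. In binding 61 (N), 60 (C), 59 of 61 (NC) and 60 (PDZ3) did so, against 81.7%, 84%, 71.1% and 89.2% of all variants. The exceptions were the stops at D332 and S361 in the binding of NC, at -0.854 ± 0.527 and -0.898 ± 0.607, whose errors are the widest of that set.

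In abundance the score of a stop depended on where it lay, and the order along the sequence was much the same in the 4 constructs. The stop at R312, the first residue of the block, scored -0.317 ± 0.00598 (N), -0.788 ± 0.00995 (C), -0.686 ± 0.00964 (NC) and -0.465 ± 0.00827 (PDZ3). The stop at I314 was close to it, at -0.387 (N), -0.685 (C), -0.724 (NC) and -0.384 (PDZ3). These stops, which leave almost nothing of the domain, lay well above most later stops. The highest single stop of a set was at V315 in N (-0.176 ± 0.0626) and NC (-0.620 ± 0.132) and at I314 in C and PDZ3. The median of stops at R312 to H317 minus the median at G345 to I377 was 0.592 ± 0.0179 (N), 0.419 ± 0.0428 (C), 0.378 ± 0.0327 (NC) and 0.806 ± 0.0211 (PDZ3). Here ± combines the variants' errors as for a mean of each group, so it leaves out the spread between residues and is not the error of a median. With early stops taken as R312 to F325 it was 0.399 (N), 0.167 (C), 0.265 (NC) and 0.627 (PDZ3).

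Scores then dropped over a few residues. The stop at I316 scored -0.464 (N), -0.949 (C), -0.784 (NC) and -0.608 (PDZ3), and I314 minus I316 was 0.0773 ± 0.0115 (N), 0.264 ± 0.0218 (C), 0.0600 ± 0.0202 (NC) and 0.224 ± 0.0160 (PDZ3). The stop at R318 scored -0.510 (N), -1.02 (C), -0.872 (NC) and -0.644 (PDZ3). The stop at T321 scored -0.649 (N), -1.12 (C), -1.02 (NC) and -0.953 (PDZ3). Between R318 and T321, with no single stop at G319 in any set, the difference was 0.139 ± 0.0181 (N), 0.103 ± 0.0307 (C), 0.143 ± 0.0379 (NC) and 0.309 ± 0.0279 (PDZ3), R318 minus T321. Each of these differences was at least 2 times its error.

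The decline was not even. The stops at G324 and N326 each scored above the stops at both neighbouring residues in every construct. N326 was above I327 by little against the errors in 2 constructs. It scored -0.574 ± 0.0178 against -0.589 ± 0.00751 in N, and -0.892 ± 0.0202 against -0.915 ± 0.00862 in PDZ3. The stop at G324 minus the stop at L323 was 0.0770 ± 0.0152 (N), 0.0988 ± 0.0298 (C), 0.101 ± 0.0301 (NC) and 0.138 ± 0.0228 (PDZ3). The stop at G329 was lower than the stop at I327 by a difference of -0.334 ± 0.0178 (N), -0.231 ± 0.0355 (C), -0.0689 ± 0.0277 (NC) and -0.282 ± 0.0224 (PDZ3). G329 itself scored -0.923 (N), -1.37 (C), -1.04 (NC) and -1.20 (PDZ3), which in N, C and PDZ3 is near the level of stops at the end of the block.

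A second group of higher-scoring stops lay around F337. The stop at F337 scored -0.489 ± 0.0106 (N), -1.04 ± 0.0230 (C), -0.873 ± 0.0299 (NC) and -0.843 ± 0.0203 (PDZ3). The stop at G333, 4 residues before it, scored -0.766 (N), -1.29 (C), -1.01 (NC) and -1.16 (PDZ3). The stop at L342, 5 residues after it, scored -0.934 (N), -1.31 (C), -1.05 (NC) and -1.19 (PDZ3). F337 was therefore above both neighbours in each construct: F337 minus G333 was 0.277 ± 0.0225 (N), 0.257 ± 0.0459 (C), 0.137 ± 0.0456 (NC) and 0.321 ± 0.0378 (PDZ3). F337 minus L342 was 0.445 ± 0.0265 (N), 0.278 ± 0.0398 (C), 0.173 ± 0.0483 (NC) and 0.344 ± 0.0361 (PDZ3). The stop at I336 minus the stop at L342 was likewise positive, at 0.391 ± 0.0253 (N), 0.184 ± 0.0353 (C), 0.127 ± 0.0405 (NC) and 0.265 ± 0.0319 (PDZ3). In N the stop at F337 was close to the much earlier stop at I316 (-0.464).

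The segments after these stops differed little. Medians of single stops over the segments starting at A343, L353, G364 and S371 ran from -1.01 to -0.926 in N, from -1.31 to -1.26 in C, from -1.17 to -1.12 in NC and from -1.31 to -1.17 in PDZ3. The last stop, at I377, scored -0.968 ± 0.0620 (N), -1.35 ± 0.10 (C), -1.29 ± 0.149 (NC) and -0.761 ± 0.0965 (PDZ3). The value of PDZ3 stood apart from its own doubles: 12 variants with the stop at I377 and a change before it had a median of -1.33, and 2 of the 12 lay above the single stop. The stop at K355 was also high in PDZ3 (-0.619 ± 0.0640) and NC (-0.782 ± 0.0651), but not in N (-1.23) or C (-1.24). Its doubles with a change before it did not all share these levels. In PDZ3, 8 of 27 were called lower than the single stop and 1 higher, and in N 13 of 34 were called higher and 0 lower. In C 0 of 36 were called, and in NC 1 of 36 was called lower.

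The stops at E352, Q358 and Q374 had the lowest single scores of the block in the abundance of N, NC and PDZ3. In C the stops at E352 and Q358 were the lowest, followed by G344 (-1.59) and Q374. The stop at E352 scored -1.87 ± 0.0824 (N), -2.39 ± 0.123 (C), -1.83 ± 0.0982 (NC) and -1.76 ± 0.0564 (PDZ3). The stop at Q358 scored -1.46 (N), -2.06 (C), -1.56 (NC) and -2.27 (PDZ3). The stop at Q374 scored -1.61 (N), -1.56 (C), -1.79 (NC) and -1.53 (PDZ3). Their doubles did not share these levels. With E352 and a change before it the median was -0.952 (N), -1.18 (C), -1.12 (NC) and -1.02 (PDZ3), and all of the 29, 36, 32 and 19 such doubles lay above their single stop. With Q358 and a change after it, which is not translated, the median was -0.920 (N), -1.30 (C), -1.09 (NC) and -1.31 (PDZ3). With Q374 and a change before it the median was -0.896 (N), -1.26 (C), -1.08 (NC) and -1.23 (PDZ3), above the single stop by less in C and PDZ3 than in N and NC. The shares of doubles called higher are given below with and without these 3 stops. E331 was a smaller case in N, where the single stop scored -1.15 ± 0.118 and its 34 doubles with an untranslated change had a median of -0.856.

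The doubles are separate variants in which the profile can be read again. For each residue the median of its doubles with an untranslated change was set beside the single stop. Across 48 to 50 residues, the 3 low stops left out, Pearson's r was 0.937 (N), 0.845 (C), 0.862 (NC) and 0.925 (PDZ3) in abundance. With them it was 0.736, 0.524, 0.628 and 0.821. Between constructs the profiles of these medians correlated with r of 0.803 to 0.919 over 51 or 52 residues. Residues of 1 profile share libraries and wild type, so these values describe likeness only. In binding the single stops and their doubles did not follow each other (r from -0.227 to 0.148 without the 3 stops), and between constructs r ran from -0.110 to 0.488.

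In binding most stops lay at about the same low level, wherever they fell. The stop at R312 scored -1.51 ± 0.0260 (N), -1.10 ± 0.00996 (C), -0.910 ± 0.0121 (NC) and -1.53 ± 0.0409 (PDZ3). The stop at I377 scored -1.42 (N), -0.995 (C), -1.03 (NC) and -1.46 (PDZ3). The median at R312 to H317 minus the median at G345 to I377 was 0.0229 ± 0.0405 (N), 0.0278 ± 0.0341 (C), -0.0125 ± 0.0307 (NC) and 0.0255 ± 0.0872 (PDZ3). Each difference is smaller than its ±, which again combines the variants' errors as for a mean. In this assay the early and late medians thus lay close together, and their difference was not tested. The largest departures were downward. The stop at E352 scored -2.19 (N), -1.72 (NC) and -2.38 (PDZ3) but -1.03 in C. The stop at S339 scored -2.18 ± 0.181 in C, while its 30 doubles with a change before it had a median of -1.07. A hump at F337 was present in N, where the stop scored -1.16 ± 0.0452 and F337 minus L342 was 0.385 ± 0.0702. That difference was 0.0631 ± 0.0287 in C, 0.0563 ± 0.0350 in NC and 0.191 ± 0.0708 in PDZ3, and in N the doubles of this stop did not share its level: their median was -1.41 with a change before it and -1.44 with a change after it.

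To compare sets, scores were divided by the size of the median single stop at G345 to I377 of the same set, so that late stops lie at -1 and the wild type near 0. Every comparison was tested over all single variants, missense and stop, present in both sets. Stops near the start of the domain were lower in binding than in abundance. In PDZ3 the stop at R312 was at -0.991 in binding and -0.364 in abundance, a difference of -0.627 ± 0.0369. In N it was at -1.01 and -0.330, a difference of -0.685 ± 0.0225. In C the difference was -0.382 ± 0.0126, and in NC it was -0.429 ± 0.0169. Over stops at R312 to R318, the difference passed the test as negative for 7 of 7 in N, 5 of 7 in C, 7 of 7 in NC and 5 of 5 in PDZ3, and for none as positive.

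The same held less strongly for stops at T321 to A343, of which 17 of 22 (N), 12 of 22 (C), 17 of 23 (NC) and 13 of 22 (PDZ3) were lower in binding. The stop at E334 in C was the 1 that was higher. From G344 on the calls were few and went both ways: 6 higher and 2 lower of 31 in N, 7 and 6 of 30 in C, 1 and 2 of 31 in NC, 4 and 3 of 30 in PDZ3. Over all stops the counts were 26 lower and 6 higher in N, 23 and 8 in C, 26 and 1 in NC, and 21 and 4 in PDZ3. Among all single variants 40.3% (N), 37.3% (C), 40.7% (NC) and 35.1% (PDZ3) were lower in binding, and 20.9%, 21.7%, 17.5% and 12.6% were higher. At R312 to R318 the share of stops called lower was above that of all single variants. At G344 to I377 it was below it, but the stops at G345 to I377 set the scale. Their median is placed at -1 in both assays, so no conclusion can be drawn from few calls there. On a scale taken from the 5% of missense substitutions with the lowest scores, the counts were 19 lower and 11 higher in C, 18 and 10 in NC, and 29 and 1 in PDZ3. The scale itself was treated as free of error in these tests.

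Early stops were lower in the abundance of C and NC than in that of PDZ3. In the abundance of C all 6 stops at R312 to R318 that could be compared were lower than in PDZ3, with a median difference of -0.280 on the scaled score. In NC 5 of 6 were lower, with a median of -0.253. The stop at R312 was at -0.616 in C and -0.606 in NC, against -0.364 in PDZ3 (differences of -0.253 ± 0.0107 and -0.242 ± 0.0112). In N it was at -0.330, which is 0.0343 ± 0.00965 above PDZ3. R318 was at -0.531 in N, against -0.505 in PDZ3, and this difference of -0.0259 ± 0.0244 did not pass the test. Early stops were thus lower in both constructs with the extension C, while in N 1 of 6 was higher (R312) and 1 lower (I314, at -0.103 ± 0.0124). For R312 the unscaled scores have the same order.

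Over all 58 stops in abundance the counts were 16 higher and 12 lower (N), 3 and 31 (C), and 5 and 25 (NC), each against PDZ3. Among all single variants 50.3% (N), 56% (C) and 64.3% (NC) were higher and 7.83%, 7.98% and 7.15% were lower. The stops of C and NC therefore went the other way from most missense variants on this scale. In N the 13 higher stops at T321 to A343 included those around F337: F337 was at -0.509 in N against -0.662 in PDZ3 (difference 0.153 ± 0.0197), and I336 at -0.565 against -0.725. Without the scaling, 48 stops were higher and 1 lower (N), 2 and 32 (C), and 19 and 10 (NC), so the direction of the count turned in NC but not in N or C. On the scale from low missense substitutions, 0 were higher and 43 lower in NC. In binding few stops differed from PDZ3: 2 higher and 5 lower of 59 in N, 4 and 8 in C, 0 and 9 in NC. The stops at G345 to I377 set the scale, so few calls among them are built into this comparison. Among all single variants 32.8% (N), 52.6% (C) and 60.4% (NC) were higher and 1.42%, 4.83% and 3.99% lower. Without scaling the counts became 4 higher and 3 lower (N), 53 and 1 (C), and 58 and 0 (NC). No stop at R312 to R318 passed the scaled test in any of the 3 contrasts. The stop at K355 was lower in all of them, by -0.261 ± 0.0847 (N), -0.242 ± 0.0736 (C) and -0.290 ± 0.0976 (NC). These 3 differences share the 1 value of PDZ3 (-0.863 on the scaled score), so they are not independent.

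Each double was then set against its own single stop. Doubles whose single stop was not measured were left out, 0 to 26 per set. The doubles covered 274 to 283 pairs of a stop and a second residue per set. In abundance, doubles with a change before the stop were higher in 210 of 2108 (N, 9.96%), 124 of 2411 (C, 5.14%), 175 of 2114 (NC, 8.28%) and 139 of 1406 (PDZ3, 9.89%). Doubles with a change after the stop were higher in 96 of 2306 (N, 4.16%), 80 of 2452 (C, 3.26%), 101 of 2167 (NC, 4.66%) and 53 of 1592 (PDZ3, 3.33%). Over all pairs of a double and 1 of its components, missense doubles included, 3.74% (N), 1.23% (C), 1.35% (NC) and 4.24% (PDZ3) were higher.

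Part of these calls came from the 3 low single stops. At Q374 the doubles with a change before it were higher in 40 of 50 (N), 9 of 54 (C), 34 of 52 (NC) and 7 of 26 (PDZ3). At E352, Q358 and Q374, over the 4 constructs, 251 of 447 doubles with a change before the stop and 106 of 212 with a change after it were higher. Without these stops the doubles with a change before the stop were higher in 6.66% (N), 2.51% (C), 5.62% (NC) and 7.13% (PDZ3), and those with a change after it in 2.49%, 1.97%, 3.74% and 2.68%. The share with a translated change stayed above the share with an untranslated one in each construct. The difference between the shares was not tested, because doubles of 1 stop share the error of that stop. The 2 groups also hold different stops, so the untranslated share is not a matched background. Over the 4 constructs the stop at R312 gave 809 doubles, all with a change after it, and the stop at K355 gave 133, all with a change before it. At E331 in N, 17 of 19 doubles with a change before the stop and 9 of 34 with a change after it were higher.

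Some doubles were lower than their single stop. Doubles with a change before the stop were lower in 33 (N), 10 (C), 1 (NC) and 99 (PDZ3), and doubles with a change after it in 86, 34, 3 and 100. After the stop in PDZ3 the 100 lower calls outnumbered the 53 higher ones. The shares were 0.0473% to 7.04% before and 0.138% to 6.28% after, where over all pairs 35.7% (N), 37% (C), 25.7% (NC) and 39.4% (PDZ3) were lower. Median differences from the single stop were small: 0.00653 (N), -0.0375 (C), 0.0643 (NC) and -0.0603 (PDZ3) before, and -0.0448, -0.0662, 0.0292 and -0.0993 after. Each of these medians is smaller than the median error of a double.

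One pair of residues stood out among changes before the stop. Of 88 pairs of a stop and an earlier residue with at least 8 substitutions in each construct, the 3 low stops left out, the stop at R318 with changes at I316 was the only one whose median difference was above 0.1 in all 4 constructs. This choice was made from the values, so the medians are given with no test over the list: 0.154 (N), 0.232 (C), 0.249 (NC) and 0.110 (PDZ3). The doubles lay above the single stop in 17 of 19 (N), 18 of 19 (C), 16 of 19 (NC) and 14 of 17 (PDZ3). Individually, 9 (N), 7 (C), 10 (NC) and 4 (PDZ3) passed the test as higher and 1, I316V in PDZ3, as lower. Over the 4 constructs 30 of 74 such doubles were higher, whereas 1 of 191 doubles with this stop and an untranslated change was. I316 is 2 residues before the stop, so the change sits next to the last residue of the peptide.

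The change to glutamate gave the highest score of all doubles with a change before this stop in each of the 4 constructs. I316E with the stop at R318 scored -0.0776 ± 0.0574 (N), -0.469 ± 0.0867 (C), -0.208 ± 0.0922 (NC) and -0.0815 ± 0.0661 (PDZ3). The stop at R318 alone scored -0.510 (N), -1.02 (C), -0.872 (NC) and -0.644 (PDZ3). The differences were 0.433 ± 0.0590 (N), 0.549 ± 0.0904 (C), 0.664 ± 0.0966 (NC) and 0.563 ± 0.0704 (PDZ3), all past the test. In N and PDZ3 this put a variant truncated before R318 within 2 errors of the wild type. The calls held in all 4 constructs with errors multiplied by 2 and with the mean of the untranslated doubles as the reference.

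Lysine, a residue of the opposite charge, also went with higher scores: I316K scored -0.213 (N), -0.508 (C), -0.601 (NC) and -0.250 (PDZ3), higher than the single stop by 0.298, 0.511, 0.272 and 0.394. I316G was higher by 0.236 (N), 0.389 (C), 0.250 (NC) and 0.201 (PDZ3), and I316S by 0.154, 0.331, 0.240 and 0.161. All 12 of these differences passed the test. With errors multiplied by 2, those of I316K in N and PDZ3 still passed and the other 10 did not. I316D was higher by 0.177 (N), 0.397 (C) and 0.426 (NC) and was not measured in the abundance of PDZ3. Changes to the aliphatic residues leucine and valine gave smaller or opposite differences. I316L gave 0.0105 (N), 0.142 (C) and 0.110 (PDZ3), none past the test, and 0.212 ± 0.0712 in NC, which passed. I316V gave -0.0624 (N), 0.232 (C), -0.150 (NC) and -0.175 (PDZ3), of which the PDZ3 value passed the test. Other changes went across this contrast. In NC I316F, I316Y and I316A were higher by 0.472, 0.356 and 0.298, all past the test and above I316K. In C they gave -0.0523, 0.0313 and 0.199, none past the test. The positively charged I316R gave 0.249 in NC, which passed, and 0.166 in C, which did not.

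Grouped by the new residue, charged changes at I316 had median differences of 0.178 (N), 0.405 (C), 0.272 (NC) and 0.241 (PDZ3). Aliphatic or aromatic changes had 0.0378 (N), 0.134 (C), 0.243 (NC) and 0.110 (PDZ3), and polar ones 0.164, 0.291, 0.179 and 0.174. Of the charged changes 4 of 5 (N), 4 of 5 (C), 4 of 5 (NC) and 2 of 4 (PDZ3) were higher; of the aliphatic or aromatic ones 1 of 8, 0 of 8, 4 of 8 and 0 of 7. The order charged above aliphatic held in all 4 medians, but in NC by less than the error of 1 double.

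The neighbouring pair of a stop at H317 with changes at V315 was more uneven. Polar changes at V315 had median scores of -0.360 (N), -0.858 (C), -0.859 (NC) and -0.662 (PDZ3), and aliphatic or aromatic ones -0.554 (N), -1.16 (C), -0.875 (NC) and -0.758 (PDZ3). The single stop at H317 scored -0.614 (N), -1.16 (C) and -0.812 (NC), with errors of 0.0632, 0.197 and 0.102. Of the 19 doubles in N, 5 were higher than it; in C and NC 0 of 19 were. The single was not measured in the abundance of PDZ3, so no difference can be given there.

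In binding the median differences of changes at I316 from the stop at R318 were near 0 or negative. They were -0.0324 (N), -0.109 (C), 0.0398 (NC) and -0.000942 (PDZ3). I316E with the stop at R318 scored -1.61 ± 0.138 (N), -0.985 ± 0.104 (C) and -0.935 ± 0.196 (NC) in binding, against -1.38, -0.989 and -0.921 for the single stop. None of these differences passed the test. The difference between the assays was tested over all doubles measured in both. Of these, 14.9% (N), 6.1% (C), 7.82% (NC) and 8.05% (PDZ3) had a lower difference from the single stop in binding than in abundance, and 2.2%, 11.6%, 7.48% and 4.69% a higher one. For I316E the difference in binding minus that in abundance passed the test as negative in N, C and NC, the 3 constructs where both were measured. I316E was picked for its abundance values, which favours a negative result, and the scores were not scaled here. Of the 75 doubles with a change before this stop in binding, 5 were higher and 2 lower. The 5 included I316F in N (-0.511 ± 0.0934, difference 0.869 ± 0.104) and I316Y in NC (-0.322 ± 0.101, difference 0.599 ± 0.105), and I316L in N was higher by 0.352 ± 0.136. I316S was higher in N (-0.746 ± 0.0944, difference 0.634 ± 0.104) and PDZ3 (-1.19 ± 0.120, difference 0.350 ± 0.131).

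Outside the 3 low stops, 8 doubles with a change before the stop were higher than their single stop in the abundance of 3 or more constructs, and 0 with a change after it. They were I316D, I316E, I316G, I316K and I316S with the stop at R318, I316P with the stop at L323, and I338R and I338T with the stop at I341. Those with the stop at R318 belong to the pair already picked from these values. Over the 4 constructs, 7592 tests had a change before such stops and 8305 a change after. No recurrent share over all doubles is given, so the 8 and 0 are counts only. At the 3 low stops the numbers were 40 and 16. With these stops included, the distinct doubles called higher in abundance in any construct numbered 462 with a change before the stop and 268 with a change after it. I316P with the stop at L323 scored -0.313 ± 0.118 (N), -0.559 ± 0.214 (C), -0.419 ± 0.144 (NC) and -0.819 ± 0.146 (PDZ3). The single stop at L323 scored -0.703 (N), -1.21 (C), -1.03 (NC) and -0.990 (PDZ3). The differences of 0.389 (N), 0.649 (C) and 0.613 (NC) passed the test and the 0.171 ± 0.148 of PDZ3 did not.

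I338 lies 3 residues before I341, 1 residue after F337. I338T with the stop at I341 scored -0.697 ± 0.0814 (N), -0.643 ± 0.137 (C), -0.484 ± 0.131 (NC) and -0.982 ± 0.0954 (PDZ3), against -0.853, -1.23, -1.08 and -1.21 for the single stop. The differences of 0.587 (C), 0.600 (NC) and 0.226 (PDZ3) passed the test, the 0.157 of N did not. I338R was higher by 0.246 (N), 0.300 (NC) and 0.194 (PDZ3), and in C the difference of -0.207 ± 0.171 did not pass. Over all changes at I338 the median difference was 0.168 (N), 0.0246 (C), 0.174 (NC) and 0.194 (PDZ3), with 8 of 19, 2 of 17, 3 of 19 and 4 of 11 called higher. With the stop at I341 and an untranslated change, 3 of 247 were called higher over the 4 constructs. The differences of I338R, I338T and I316P named here did not pass the test with errors multiplied by 2.

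Some changes before the stop lowered the score. S339L with the stop at F340 scored -0.863 ± 0.0791 (N), -1.37 ± 0.0926 (C), -1.48 ± 0.222 (NC) and -1.30 ± 0.137 (PDZ3), against -0.665, -1.10, -0.980 and -0.965 for the single stop. The differences of -0.198 (N), -0.276 (C) and -0.331 (PDZ3) passed the test and the -0.501 of NC did not. G335L with the stop at F337 differed by -0.139 (N), -0.346 (C) and -0.345 (PDZ3), all past the test, and by 0.184 ± 0.107 in NC, which did not pass. These were the only 2 doubles with a translated change that were lower in 3 constructs. With errors multiplied by 2, none of these differences passed the test. Of the stops with a change before them, T321 had the highest share called lower, 9 of 72 over the 4 constructs, with 0 called higher. Its partner residue was R318, at median differences of -0.0955 (N), -0.165 (C), -0.0169 (NC) and -0.124 (PDZ3).

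Changes after the stop, which are not translated, also gave recurring differences. In abundance both doubles that were lower in 3 constructs had the stop at R312. Of 809 doubles with the stop at R312 over the 4 constructs, 75 were lower than the single stop and 15 higher. Their median was -0.419 (N), -0.919 (C), -0.699 (NC) and -0.647 (PDZ3), against -0.317, -0.788, -0.686 and -0.465 for the single stop. The single stop was thus above the median by 0.102 (N), 0.132 (C), 0.0133 (NC) and 0.181 (PDZ3). Of 102 pairs with an untranslated change, 3 had a median difference under -0.1 in all 4 constructs, and each had the stop at R312: with F325, with G324 and with I336. G324L with the stop at R312 differed by -0.190 (N), -0.217 (C), -0.353 (NC) and -0.143 (PDZ3), the first 3 past the test. L353T differed by -0.383 (N), -0.595 (C), -0.00492 (NC) and -0.234 (PDZ3), all but NC past the test. With changes at D357 the calls lay almost wholly in 1 construct: 17 of 19 were lower in N, 1 of 19 in C, 0 of 19 in NC and 0 of 18 in PDZ3. These differences occurred with no change in the translated peptide.

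By the kind of the new residue, charged changes before the stop were called higher in abundance in 13.2% (N), 5.25% (C), 8.94% (NC) and 11.2% (PDZ3) of doubles. Charged changes after the stop were called higher in 2.90%, 3.03%, 4.51% and 3.85%. For aliphatic or aromatic changes the shares were 8.11% (N), 5% (C), 6.71% (NC) and 7.44% (PDZ3) before, and 4.47%, 3.39%, 5.01% and 3% after. Median differences of charged changes were 0.0316 (N), -0.0158 (C), 0.0725 (NC) and -0.0176 (PDZ3) before the stop, and -0.0547, -0.0841, 0.0297 and -0.0903 after it. For aliphatic or aromatic changes they were -0.0228 (N), -0.0491 (C), 0.0409 (NC) and -0.0928 (PDZ3) before, and -0.0434, -0.0574, 0.0303 and -0.0972 after. For polar changes the shares were 9.17% (N), 5.57% (C), 9.93% (NC) and 13.7% (PDZ3) before, and 5.34%, 2.97%, 3.66% and 2.95% after. Before the stop the polar share was thus above the charged one in C, NC and PDZ3, and both were above the aliphatic or aromatic share in each construct. The smaller classes did not keep to this order. Before the stop, changes to glycine were higher in 11.3% (N), 4.55% (C), 9.52% (NC) and 11.7% (PDZ3). Changes to proline were higher in 12.6%, 4.69%, 10.8% and 7.59%. Both of these shares were above the polar one in N and below the aliphatic or aromatic one in C. Each median is small against the error of 1 double. All these shares include the 3 low stops.

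In binding the shares of the 2 groups of doubles lay close together. With a change before the stop, 62 of 2091 (N, 2.97%), 254 of 2351 (C, 10.8%), 269 of 2234 (NC, 12.0%) and 70 of 1816 (PDZ3, 3.85%) were higher than the single stop. With a change after it, 58 of 2148 (N, 2.70%), 201 of 2338 (C, 8.60%), 258 of 2255 (NC, 11.4%) and 56 of 1831 (PDZ3, 3.06%) were. Over all pairs of these sets 1.81% (N), 4.59% (C), 3.38% (NC) and 1.93% (PDZ3) were higher. Without the 3 low stops the shares were 2.08% (N), 11.1% (C), 8.69% (NC) and 1.35% (PDZ3) before the stop, and 2.40%, 8.67%, 10.5% and 1.74% after it. The share before the stop was then below the share after it in N, NC and PDZ3 and above it in C. The high shares of C and NC go with the sets whose untranslated doubles spread more than their errors. In C the 3 stops left out were not low in binding, while the low single stop at S339 stayed in. There 28 of 30 doubles with a change before S339 and 28 of 31 with a change after it were higher. Of the doubles of the stop at E334 in C, 30 of 57 with a change before it and 11 of 19 with a change after it were lower. Doubles called lower numbered 11 (N), 51 (C), 13 (NC) and 4 (PDZ3) before the stop and 5, 42, 5 and 3 after it, where over all pairs 33.6% (N), 48.4% (C), 40.6% (NC) and 32.9% (PDZ3) were lower.

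Outside the 3 low stops, 2 doubles with a translated change and 4 with an untranslated one were higher in the binding of 3 or more constructs. Over the 4 constructs these groups had 8001 and 8337 tests, and no recurrent share over all doubles is given. The translated ones were L323R with the stop at F325, at differences of 0.317 (N), 0.371 (C) and 0.132 (NC), and V328L with the stop at G329, at 0.252 (N), 0.128 (C) and 0.119 (NC). The untranslated ones were R368S with the stops at L360 and D366, L353P with the stop at I314 and R354G with the stop at I341. R354G with the stop at I341 differed by 1.02 ± 0.149 (N), 0.396 ± 0.176 (C) and 0.526 ± 0.0714 (NC). Recurring higher binding scores were thus also found where the second change is not translated. The stop at E334 stood out in the other direction. It scored -1.37 (N), -0.817 (C), -0.696 (NC) and -1.40 (PDZ3) in binding, and in all 4 constructs its doubles with translated changes at E331 and G330, and with untranslated changes at F337, had median differences under -0.1.

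Doubles picked for a large difference in 1 set mostly did not pass the test in the other constructs. By a rule of the 3 highest and 3 lowest precise differences per set and side, 94 doubles were picked, 57 of them outside the 3 low stops. Of those 57, 47 passed the test in that direction in 1 construct of the assay only, 9 in 2 and 1 in 3 or more. The picks are the extremes of each set, which favours low recurrence, and no such share was computed over all doubles. I336A after the stop at G335 scored 0.0525 ± 0.0885 in the binding of NC, at the level of the wild type, against -1.01 for the single stop. The same double scored -1.60 (N), -1.23 (C) and -1.63 (PDZ3) in binding. R312K before the stop at G330 scored -0.0912 ± 0.0463 in the binding of C, against -1.68 to -0.791 in the other constructs. G345C after the stop at L342 scored -0.227 ± 0.0391 in the binding of C (single -1.14) and -0.509 ± 0.0804 in NC (single -0.883), but -1.54 in N and -1.63 in PDZ3. In abundance, F325P before the stop at A347 scored -0.220 ± 0.0939 in PDZ3, against -0.895 (N), -1.52 (C) and -1.56 (NC). Each of these high scores was thus seen in 1 or 2 constructs of 1 assay.

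Of all doubles with a stop and a missense change, 97.1% (N), 92.3% (C), 86.4% (NC) and 90.5% (PDZ3) were below the wild type in abundance, and 92.8%, 98.2%, 90.9% and 96.0% in binding. None of these doubles was above the wild type in any set. Among all variants of the same sets 75.8% (N), 65.9% (C), 43.6% (NC) and 79.7% (PDZ3) were below the wild type in abundance, and 81.7%, 84%, 71.1% and 89.2% in binding. In variants with 2 stops translation ends at the first. In abundance those with a first stop at R312 to R318 had a median of -0.492 (N), -1.07 (C), -0.739 (NC) and -0.751 (PDZ3). Those with a first stop from G344 on had a median of -0.971 (N), -1.32 (C), -1.07 (NC) and -1.33 (PDZ3). Single stops at R312 to H317 had medians of -0.370 (N), -0.858 (C), -0.754 (NC) and -0.465 (PDZ3), so the early levels were not all the same. The order was shared: in each construct the variants with 2 stops had a higher median for early than for late first stops. There were 13 to 25 early and 24 to 40 late variants per set. Against the single stop at the first position, 2 (N), 4 (C), 5 (NC) and 2 (PDZ3) were higher and 4, 2, 0 and 4 lower of 120, 122, 99 and 72. Over all pairs in abundance 3.74% (N), 1.23% (C), 1.35% (NC) and 4.24% (PDZ3) were higher and 35.7%, 37%, 25.7% and 39.4% lower. In binding the medians for early and late first stops were -1.68 and -1.51 (N), -1.16 and -1.06 (C), -0.915 and -0.857 (NC), and -1.52 and -1.57 (PDZ3).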

How the data were processed

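The yeast growth competitions, libraries and groups are those described above. The deposited table holds the authors' fitness score, 1 value and standard error per variant and set, relative to the wild type. Per the labels it comes from input and output sequencing, and per the submitters' processing notes cutadapt and FastQC were used. The sources used here give no versions, log base or read counts. The authors merged the cultures, so no replicate spread can be computed. The deposited table holds no per-sample columns. Wild-type scores were read from the deposited growth rates, an exact straight line of the score; 8 placeholder wild-type entries were left out. Members and lists were chosen with earlier results of these data known.

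Differences were tested with a 2-sided normal test over the combined authors' errors, with Benjamini-Hochberg adjustment over all variants (against the wild type), all pairs of a double and a component, or all single variants (between sets), at a threshold of 0.05. The few cultures behind each error limit such a test, so differences are given with their errors and no p-value is printed. Contrasts used scaled scores, with the scale taken as free of error. The test of doubles was checked on simulated scores for the abundance of N, with noise drawn from the authors' errors. That check cannot show how the test behaves where the spread is wider than these errors. Named single stops were R312, I377 and the extremes of each set and segment, with further ones chosen after their values were seen. Named doubles were the 3 highest and 3 lowest precise differences per set and side, and those past the threshold in 3 or more constructs. Alternatives changed errors, threshold, reference, scale, residue windows and distance to the stop. Python 3.11.15, numpy 2.4.6, pandas 2.3.3 and scipy 1.17.1 were used.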

Additional observations from a re-analysis of the deposited data

Results flagged for a closer look

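For doubles that recurred across constructs, the difference from the single stop was compared between the assays, as binding minus abundance, with the combined errors and adjustment over all doubles measured in both. The doubles named here were chosen for a higher difference in abundance, so the choice itself favoured negative values. The scores were not scaled for this comparison, although the range of scores differs between the assays. The values below passed the test between the assays. In N it was -0.659 ± 0.156 for I316E with the stop at R318 and -0.977 ± 0.344 for I316P with the stop at L323. I316S with the stop at R318 went the other way in N, at 0.480 ± 0.116. In C it was -0.675 ± 0.151 for I316K, -0.545 ± 0.139 for I316E, -0.518 ± 0.160 for I316D, -0.508 ± 0.109 for I316G and -0.439 ± 0.0938 for I316S, each with the stop at R318. For I338T with the stop at I341 it was -0.568 ± 0.163 in C. In NC it was -0.677 ± 0.220 for I316E with the stop at R318. In PDZ3 none of the doubles named here passed, and I316E could not be compared because its binding score was not measured.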

How the results depend on the processing

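Counts of single stops below the wild type stayed within 1.5 times the reported count under the alternatives run. Counts of called doubles depended on the errors, the threshold and the reference. In abundance, 648 doubles with a change before the stop were higher. This became 85 with errors multiplied by 2, 416 at an adjusted p under 0.01, 341 against the mean of doubles with an untranslated change, 373 without changes within 2 residues of the stop, and 397 without the stops at E352, Q358 and Q374, an alternative chosen after seeing the data. The 143 lower ones became 10 (errors) and 67 (threshold). With a change after the stop, the 330 higher became 29, 183 and 208 (reference), and the 223 lower became 14, 87 and 117. In binding, the 655 higher with a change before the stop became 111, 431 and 290, and the 79 lower became 3, 32, 130 and, without changes within 2 residues, 52. With a change after it, the 573 higher became 95 (errors) and 360 (reference), and the 55 lower became 2, 16 and 164. Early minus late stops in abundance, with early taken as R312 to F325, was 0.399 (N), 0.167 (C), 0.265 (NC) and 0.627 (PDZ3), and with late as L353 to I377, 0.561 (N) and 0.756 (PDZ3).

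Counts of stops called between constructs in abundance were, with errors multiplied by 2, 11 of 28 (N), 20 of 34 (C) and 11 of 30 (NC). Without scaling they were 49 (N) and 29 (NC, direction turned). In binding they were 1 of 7 (N, direction turned), 4 of 12 (C) and 1 of 9 (NC) with errors multiplied by 2, 7 (N), 54 (C) and 58 (NC) without scaling, each with its direction turned, and 16 (NC) with the scale set by missense substitutions. Between assays they were 15 of 31 (C), 12 of 27 (NC) and 11 of 25 (PDZ3) with errors multiplied by 2. Causes were not tested. No paired analysis was possible because the table holds 1 merged value per variant, and leaving out replicates could not be run for the same reason. Depth is unknown, so precision rests on the authors' errors.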
